A study of Mus musculus with 10 samples.

Results

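The late response to cooling was read from wild-type NIH3T3 cells, a mouse embryonic fibroblast line, kept at 38 °C for 16 h and then moved to 33 °C. The samples are those taken 6 and 9 h after the move and, as the baseline, the one taken at 0 h, which makes 3 of the 10 samples of the series. All cells were first seeded at 37 °C for 4 h, so the baseline cells had 16 h at 38 °C behind them and were not cells held at 37 °C. The other samples are 1 and 3 h of the same cooling course and a mirror course from 33 to 38 °C, called warming here, with 0, 1, 3, 6 and 9 h. No cells were kept on at 38 °C alongside those moved to 33 °C. Temperature and time in culture therefore changed together in every change from 0 h, and their parts cannot be told apart. Total RNA was freed of ribosomal RNA and sequenced, and for each gene the reads in exons and the reads in introns were counted apart. Each of these 3 samples holds 2 columns of values, numbered series 5 and series 11, which gives 6 of the 22 exon columns and as many intron columns to the late comparison. NIH3T3 is a single immortalised line, and nothing in the labels says whether series 5 and 11 were separate cultures, so the p-values measure the spread between these columns, which may be technical.

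Mammalian cells lower the activity of heat shock factor 1 when the temperature drops, and with it the transcription of chaperones that keep proteins folded. They raise a small set of cold-inducible RNA-binding proteins, of which CIRBP and RBM3 are the best known, and cell division slows. Intron reads of total RNA come mostly from precursor RNA that is not yet spliced, while exon reads come mostly from mature RNA, so the exon change minus the intron change gives the change in the balance of both forms.

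Exon reads per column ranged from 22403625 to 42546722 and intron reads from 15313374 to 24165194, with the shallowest column at 9 h in series 11. Values are given as CPM, counts per 1000000 reads of the tested genes after TMM scaling, with series 5 before series 11 at each time. The change from 0 h is the mean log2 of 6 and 9 h minus 0 h within each series. It was fitted by edgeR's quasi-likelihood test with series as a block, and a log2 change of 1 stands for 2-fold. An approximate standard error (SE) is given with it, the absolute change divided by the square root of the test's F statistic. Genes were called at an adjusted p under 0.05 over all genes tested. In exon reads 11592 genes were tested, of which 2024 (17.5%) rose and 2184 (18.8%) fell, or 36.3% in all, 168 and 240 of them by more than 2-fold, and the median change over all tested genes was 0.01. The summed level of 10 fibroblast markers lay between 18797 and 22740 CPM over the 6 columns. Markers of macrophages summed to between 21.4 and 39.9 CPM, of epithelium to between 22.0 and 51.2, of endothelium to between 2.15 and 5.35, of skeletal muscle to between 3.46 and 7.40 (lowest at 9 h in both series) and of adipocytes to between 61.8 and 113 CPM. Emcn, Epcam, Krt5, Cldn4, Myod1, Ckm, Myh2, Adipoq, Lep and Cfd are listed at 0 in all 6 columns, but so are Rpl13 and Cox4i1, which every cell uses, so a listed 0 does not show that a gene is silent.

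Many calls depended on the 0 h column of series 5. Without it 1602 genes were called in place of 4208, and the changes then rested on the baseline of series 11. For many of the genes and lists named below, the result without that column stands beside the main one.

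Among genes with a plain symbol, Mrgprd, a receptor best known from sensory neurons, heads the ranking of called rises in exon reads, with 0 and 2 exon reads at 0 h and 265 reads over the 4 late columns. This is a ratio of 64.5 with a 95% exact counting interval from 17.7 to 535. Its level was 0 and 0.0574 CPM at 0 h, 0.874 and 2.79 at 6 h, and 1.01 and 3.58 at 9 h, and its fitted change (5.98 ± 0.43, or 8.10 without the 0 h column of series 11) depends on the prior count. With so few reads at 0 h it passed the filter on low counts only through columns taken after the shift, so a tested gene of this kind had to differ. Baselines of Pcdh10, Tbc1d10c, Epm2a, Porcn and Cyp7a1, given below, were also under 20 reads in each series. That of Fyb, also given below, was under 20 reads in series 5 only. The same limit holds for the calls of all these genes. Cirbp, the cold-inducible RNA-binding protein (chr10:80165985-80172786, plus strand, mm10, GENCODE M21), was at 3.56 and 5.39 CPM at 0 h, 43 and 53.3 at 6 h, and 64.1 and 68.8 at 9 h. Every late column lay far above both baselines and 9 h lay above 6 h in both series, with a log2 change of 3.67 ± 0.13, adjusted p 5.2e-07.

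Pcdh10, a protocadherin of cell adhesion, was at 0.323 and 0.315 CPM at 0 h, 7.09 and 2.10 at 6 h, and 10.7 and 1.59 at 9 h. The rise (3.93 ± 0.44, adjusted p 0.000225) was steeper in series 5, and it was 2.67 without the 0 h column of series 5 and 4.72 without that of series 11. Tbc1d10c, a GTPase-activating protein known from lymphocytes, was at 0.264 and 0.315 CPM at 0 h, 4.96 and 6.203 at 6 h, and 3.48 and 3.94 at 9 h, and rose by 3.96 ± 0.22, adjusted p 1.04e-05. Cela1, a pancreatic-type elastase, was at 1.65 and 3.73 CPM at 0 h, 9.85 and 13.6 at 6 h, and 12 and 16.5 at 9 h, and rose by 2.30 ± 0.16, adjusted p 2.98e-05. In both genes each late column exceeded both baselines, and only in Cela1 were both 9 h values above those at 6 h.

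Epm2a, which encodes the glycogen phosphatase laforin, was at 0.235 and 0.172 CPM at 0 h, 2.17 and 1.36 at 6 h, and 1.78 and 1.06 at 9 h and rose by 2.94 ± 0.29, adjusted p 0.000132. Porcn, the acyltransferase that lipidates Wnt proteins, rose by 2.37 ± 0.31, and Cyp7a1, the rate-limiting enzyme of bile acid synthesis, by 2.30 ± 0.32, both from levels under 0.5 CPM. Fyb, an adaptor protein of blood cells, was at 0.382 and 1.43 CPM at 0 h, 3.31 and 3.64 at 6 h, and 4.79 and 4.73 at 9 h. It rose by 2.25 ± 0.36, or 3.19 without the 0 h column of series 11, where its baseline was higher. Chd7, a chromatin remodeller, rose by 1.99 ± 0.32 and Nxpe4 by 2.22 ± 0.24, and without the same column by 3.08 and 2.999. Cercam rose by 2.16 ± 0.19. Apart from Cirbp, the genes named in this paragraph and the preceding ones had baselines of at most 4.53 CPM.

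**Figure D1:**
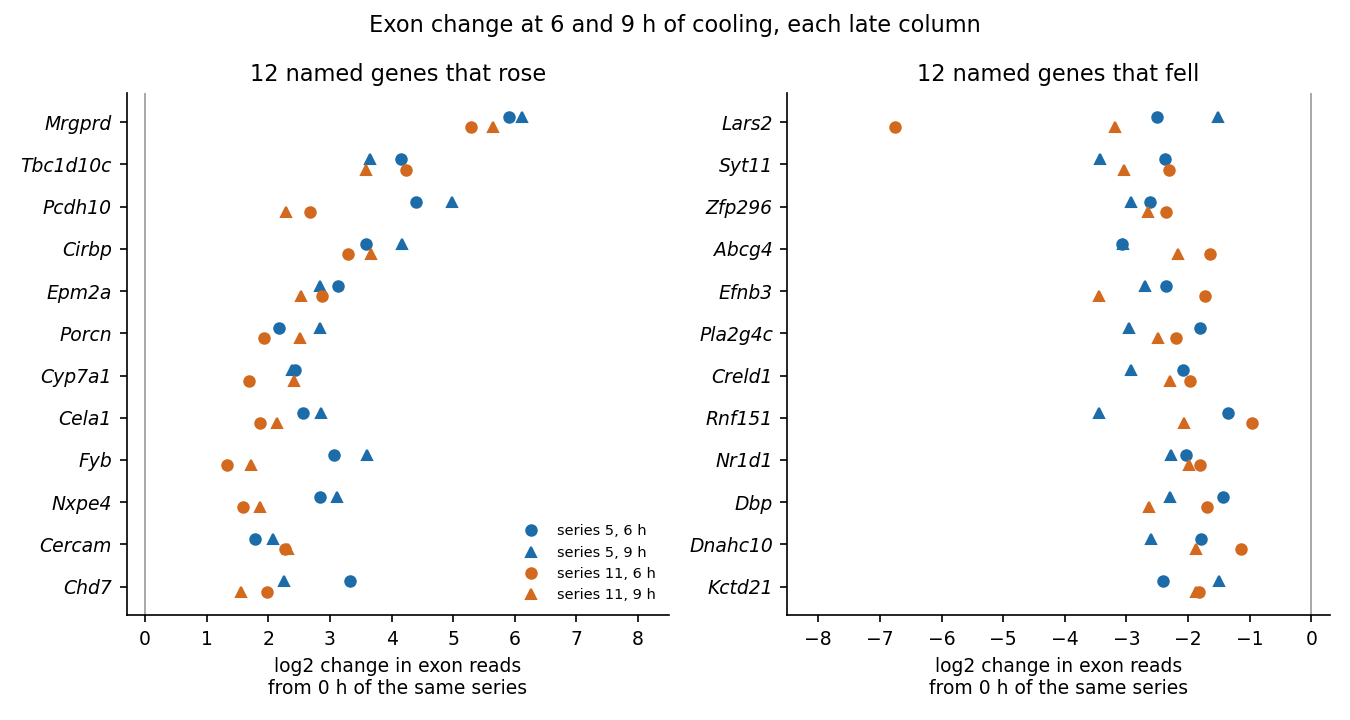
Log2 change in exon reads from 0 h of the same series (x axis, with 0.5 reads added to each count) for the 12 genes per direction with the largest called change, one row per gene; circles are 6 h, triangles 9 h, blue series 5 and orange series 11. The rule that chose the genes put all 4 late columns of each on one side of 0, and the 6 h points of Lars2 in the 2 series lie the farthest apart.

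Among genes that fell, Lars2, the mitochondrial leucyl-tRNA synthetase, had the largest fitted change (-4.04 ± 0.86, adjusted p 0.0054), yet its level was 35.9 and 779 CPM at 0 h, 6.33 and 7.23 at 6 h, and 12.6 and 85.4 at 9 h. The 0 h column of series 11 stood alone, and without it the change was -1.42 (adjusted p 0.24), so the call rested on that column. It was -5.20 without the 0 h column of series 5 and -4.75 without the 9 h column of series 11. Syt11, a synaptotagmin of vesicle traffic, was at 8.99 and 5.25 CPM at 0 h, 1.72 and 1.05 at 6 h, and 0.825 and 0.619 at 9 h. Its late columns all lay below both baselines, 9 h below 6 h in each series, and the change was -2.80 ± 0.25, adjusted p 9.28e-05. Efnb3, the ligand ephrin B3, was at 2.82 and 2.15 CPM at 0 h, 0.543 and 0.641 at 6 h, and 0.426 and 0.177 at 9 h and fell with a log2 change of -2.49 ± 0.28, adjusted p 0.000219. Its late columns held few reads, and it passed the filter on low counts only with the help of the columns before 6 h. The limit given for Mrgprd thus holds for the call of Efnb3 in the other direction.

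Pla2g4c, a cytosolic phospholipase A2, was at 3.58 and 3.81 CPM at 0 h, 1.02 and 0.820 at 6 h, and 0.452 and 0.663 at 9 h, and its log2 change was -2.41 ± 0.24, adjusted p 0.000134. Abcg4, an ATP-binding cassette transporter of sterols, was at 5.85 and 3.07 CPM at 0 h, 0.685 and 0.974 at 6 h, and 0.692 and 0.663 at 9 h, a change of -2.56 ± 0.34 that was -1.92 without the 0 h column of series 5. Both genes had late columns well below both baselines. Zfp296, a zinc finger protein, changed by -2.70 ± 0.28, Creld1 by -2.38 ± 0.24, Rnf151 by -2.12 ± 0.27 and Kctd21 by -1.87 ± 0.27, from baselines between 1.004 and 3.73 CPM. Baselines this low left few late reads, so these genes could pass the filter on low counts mainly through the columns before 6 h. Where they did, the limit given for Mrgprd holds for their calls in the other direction. Dnahc10, a dynein heavy chain of cilia, changed by -1.96 ± 0.36, and by -1.07 (adjusted p 0.135) without the 0 h column of series 5. Zfp296 overlaps Gemin7 and Dnahc10 overlaps Gm43777 on the other strand, and reads of such partners cannot be told apart where counting by strand is not stated.

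Of 8 tested cold-inducible RNA-binding protein genes, 5 rose and 1 fell in exon reads (median 0.31). Rbm3, the other classic cold-induced gene (chrX:8138975-8145880, minus strand, mm10, GENCODE M21), was at 52.5 and 78.6 CPM at 0 h, 142 and 132 at 6 h, and 208 and 158 at 9 h, with a log2 change of 1.23 ± 0.26, adjusted p 0.00533. All late columns were above both baselines, but without the 0 h column of series 5 the change was 0.74 (adjusted p 0.0628), and without that of series 11 it was 1.88. Srsf5, a splicing factor of the SR family, was at 236 and 212 CPM at 0 h, 393 and 353 at 6 h, and 397 and 359 at 9 h and rose by 0.75 ± 0.0741, adjusted p 0.000135, close to equally in both series. Rbmx (0.30 ± 0.0924) and Hnrnpa1 (0.31 ± 0.0959), nuclear RNA-binding proteins, were the other members that rose, at adjusted p 0.124 and 0.241 without the 0 h column of series 5. Rbm5, a splicing regulator, fell with a log2 change of -0.41 ± 0.0800, or -0.31 (adjusted p 0.0738) without the 0 h column of series 5. The members that rose were 2 without that column and 3 without the 6 or the 9 h column of series 11. Rbm3 overlaps its antisense gene Rbm3os.

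Within the SR proteins and splicing kinases, 5 of 20 rose and 3 fell (median 0.09), against 17.5% and 18.8% of all tested genes. Both shares are near those of all genes. Tra2a, a splicing activator, was at 114 and 99.1 CPM at 0 h, 54 and 40.4 at 6 h, and 49.9 and 52 at 9 h and its log2 change was -1.12 ± 0.12, adjusted p 0.000186. Srsf7 changed by -0.78 ± 0.0988 and the kinase Dyrk1b, at under 3 CPM, by -1.46 ± 0.24. Besides Srsf5 the members that rose were Dyrk1a (0.44 ± 0.0864), Srpk2 (0.29 ± 0.0717), Srsf6 (0.28 ± 0.0796) and Srsf2 (0.27 ± 0.0730). Of the 5, 2 were called without the 0 h or the 6 h column of series 5, and without the first Srpk2, Srsf6 and Srsf2 were at adjusted p 0.143, 0.211 and 0.124. Intron reads of Tra2a and Srsf7 changed by -0.24 and 0.21, and neither was called. Of 21 hnRNP genes, which bind precursor RNA, 8 rose, led by Ptbp2 (0.61 ± 0.0961), Hnrnpd (0.56 ± 0.14) and Syncrip (0.38 ± 0.11). Without the 0 h column of series 5, 1 hnRNP gene was called, without the 6 h column of series 5 it was 2, and without the 6 or 9 h column of series 11 it was 5 or 4. With the first of these left out, Hnrnpd and Syncrip were at 0.33 (adjusted p 0.182) and 0.17 (adjusted p 0.274).

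Genes on the list of cytosolic heat shock chaperones, which also holds the mitochondrial Hspd1 and Hspe1, fell late after cooling. Of 32 tested genes 19 fell and 2 rose (median -0.53), against 18.8% and 17.5% of all tested genes. Hspa8, the constitutive HSP70, was at 2510.0 and 1609 CPM at 0 h, 823 and 655 at 6 h, and 1009 and 624 at 9 h. Hsph1, an HSP70 exchange factor, was at 568 and 465 CPM at 0 h, 186 and 208 at 6 h, and 169.8 and 203 at 9 h. Chordc1, a co-chaperone of HSP90, was at 191 and 86.8 CPM at 0 h, 65.7 and 33.9 at 6 h, and 64.7 and 37.7 at 9 h. In all 3 genes each late column lay below both baselines, with log2 changes of -1.39 ± 0.0982, -1.44 ± 0.14 and -1.42 ± 0.10, and adjusted p of 2.98e-05, 0.000117 and 2.98e-05.

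Hsp90aa1, the inducible HSP90, was at 2834 and 1734 CPM at 0 h, 1868 and 1243 at 6 h, and 1343 and 915 at 9 h, lower at 9 h than at 6 h in both series, and its change was -0.77 ± 0.10, adjusted p 0.000541. The inducible HSP70 genes Hspa1a and Hspa1b were called with -1.001 ± 0.30 and -1.22 ± 0.24, but they are near-identical copies, so the split of reads between them is uncertain. Without the 0 h column of series 5 they were at -0.42 and -0.66 (adjusted p 0.318 and 0.0794). Without that of series 11 Hspa1a was at -1.69, and it was not called without the 6 or 9 h column of series 5 or the 9 h column of series 11. Hspd1 and Hspe1, the mitochondrial chaperonin pair, changed by -0.39 ± 0.0917 and -0.47 ± 0.10. The call of Hspe1 was lost without the 0 h column of series 5 (-0.36, adjusted p 0.111) and that of Hspd1 without the one of series 11 (-0.33, adjusted p 0.0668). The members that rose were Dnajb6 (0.49 ± 0.0885) and Dnaja2 (0.29 ± 0.0975), co-chaperones of HSP70, at adjusted p 0.0517 and 0.341 without the 0 h column of series 5, and Dnaja2 lost its call with any of the 6 columns left out. The fall was in both series, with list medians of -0.55 in series 5 and -0.43 in series 11, and between 14 and 19 members were called with each column left out in turn.

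Heat shock factor 1 binds repeats of a short element, searched here as TTC, GAA and TTC with any 2 bases between one and the next, on both strands, in windows of 250 bases before to 50 after each RefSeq start (GRCm38.p6). The element was in 5 of the 28 chaperone genes with a window and in 0.662% of 27025 genes. The genes were Hsph1, Chordc1, Hspe1 and Hspd1, which fell, and Dnajb6, which rose. Of all 28 genes with a window 15 fell. Hspe1 and Hspd1 lie head to head, and their windows share the same match. The 250 bases before the Hspe1 start (chr1:55087898-55088147, plus strand) are shown because they hold it, with 2 overlapping matches in capitals that begin 89 bases before the start.
Hspe1: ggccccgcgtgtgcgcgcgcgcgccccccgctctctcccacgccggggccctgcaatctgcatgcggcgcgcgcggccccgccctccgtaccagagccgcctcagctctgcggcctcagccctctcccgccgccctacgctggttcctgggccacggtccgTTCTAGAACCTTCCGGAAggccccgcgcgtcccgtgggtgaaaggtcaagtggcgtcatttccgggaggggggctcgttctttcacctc

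Genes of protein folding in the endoplasmic reticulum (ER) fell with smaller changes: 13 of 22 fell and none rose (median -0.33). Creld2, an ER stress-induced disulfide isomerase, was at 141 and 75.3 CPM at 0 h, 60.2 and 42.4 at 6 h, and 46.2 and 30.6 at 9 h, and its change was -1.25 ± 0.0921, adjusted p 3.53e-05. Sdf2l1, an ER co-chaperone, was at 122 and 66.4 CPM at 0 h, 57.5 and 35 at 6 h, and 42.1 and 30.8 at 9 h, and its change was -1.17 ± 0.15, adjusted p 0.000383. Hspa5, the ER HSP70 BiP, was at 1807 and 1300.5 CPM at 0 h, 1305 and 1002 at 6 h, and 1073 and 845 at 9 h, with a change of -0.55 ± 0.0858, adjusted p 0.00111. In each the late columns of a series lay below its baseline and 9 h lay below 6 h. Hyou1 changed by -0.71 ± 0.0865. The number that fell was 6 without the 0 h column of series 5, and the medians were -0.43 in series 5 and -0.26 in series 11.

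The ER stress response element, searched as CCAAT and CCACG with any 9 bases between, on both strands, was in 8 of 20 ER folding genes with a window and in 0.137% of 27025 genes. Hspa5, Hsp90b1, Pdia6, Calr and Creld2 hold it and fell, and Canx, Dnajc3 and Syvn1 hold it and were not called. Of all 20 genes with a window 10 fell. The calls of Calr, Hsp90b1 and Pdia6 were lost without the 0 h column of series 5 (adjusted p 0.129, 0.054 and 0.145). The 250 bases before the starts of Creld2 (chr15:88819396-88819645, plus strand) and Hspa5 (chr2:34771840-34772089, plus strand) are shown with the match in capitals, since Creld2 had the largest change of the list and Hspa5 encodes the central chaperone of the ER. The matches begin 126 and 65 bases before the start.
Creld2: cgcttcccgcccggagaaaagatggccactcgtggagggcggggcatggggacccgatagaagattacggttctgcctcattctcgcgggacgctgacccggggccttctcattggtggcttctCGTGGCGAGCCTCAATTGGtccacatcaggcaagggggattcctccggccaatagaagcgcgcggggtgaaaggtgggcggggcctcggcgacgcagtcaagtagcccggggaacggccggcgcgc
Hspa5: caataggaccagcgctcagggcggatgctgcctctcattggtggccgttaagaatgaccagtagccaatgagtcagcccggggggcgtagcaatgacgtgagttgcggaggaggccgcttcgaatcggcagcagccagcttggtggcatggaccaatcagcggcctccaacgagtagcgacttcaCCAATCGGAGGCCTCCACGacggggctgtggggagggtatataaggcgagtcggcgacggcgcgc

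**Figure D2:**
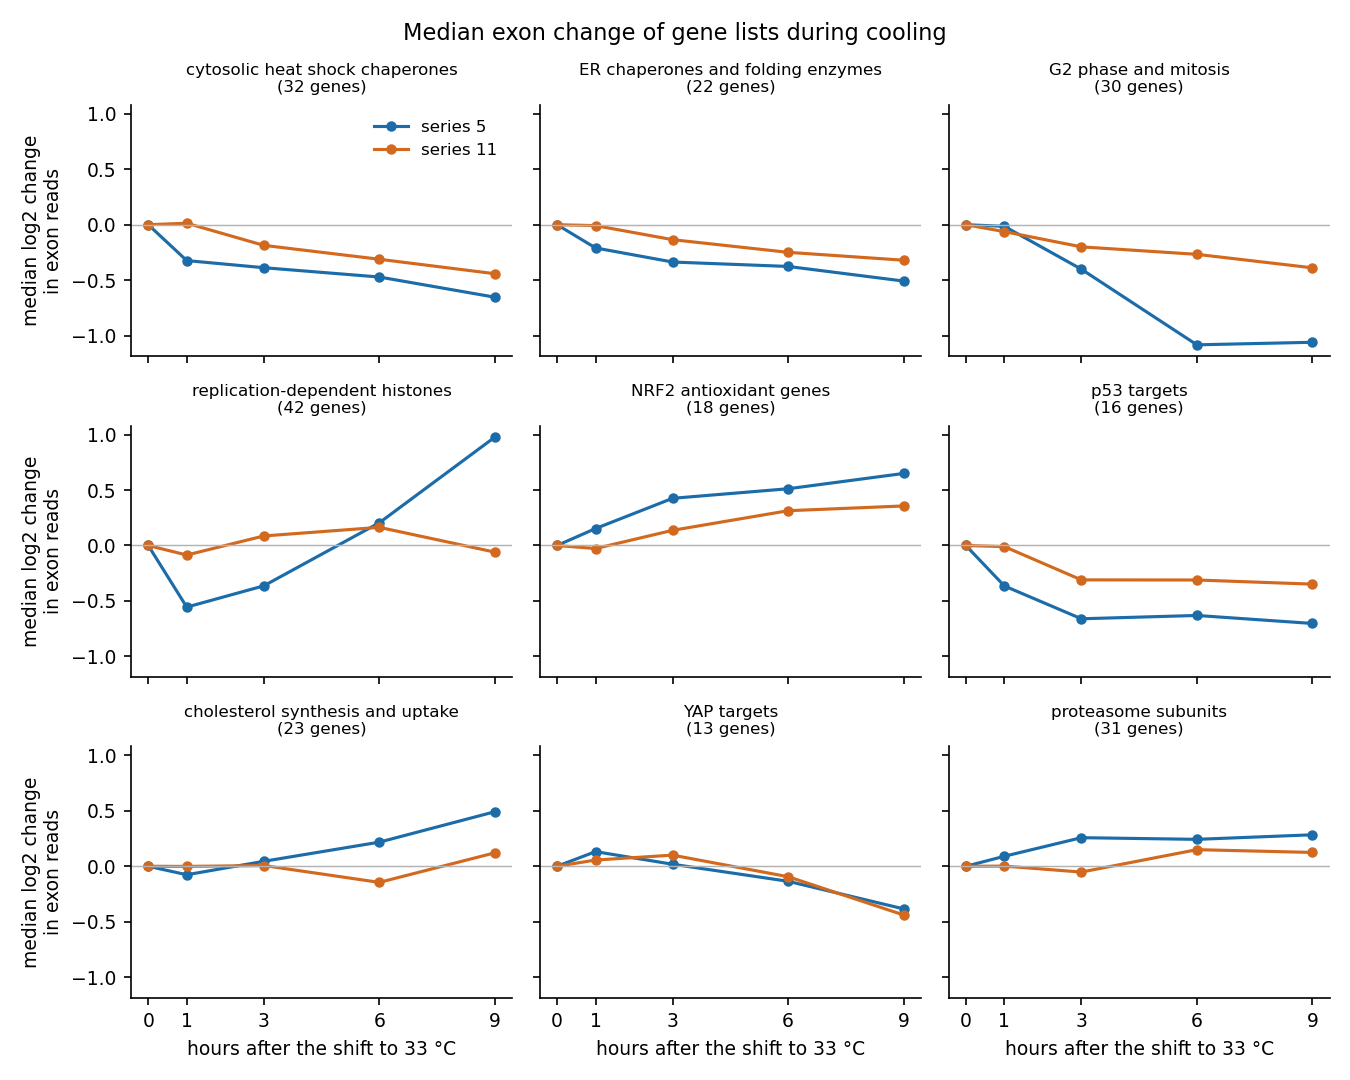
Median log2 change in exon reads from 0 h of the same series (y axis) against hours after the shift (x axis) for 9 gene lists, blue series 5 and orange series 11; the number of tested genes is in each title. The chaperone, ER and p53 medians fall in both series, the mitosis median falls further in series 5, and the histone median ends at 0.98 in series 5 and at -0.06 in series 11.

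Genes of G2 phase and mitosis fell in exon reads: 26 of 30 fell and none rose (median -0.68). The size differed between the series, with medians of -1.04 in series 5 and -0.32 in series 11, and 4 members were called without the 0 h column of series 5. Aurka, the mitotic kinase Aurora A, was at 288 and 149 CPM at 0 h, 87.1 and 104 at 6 h, and 93.4 and 81.4 at 9 h. Ube2c, a ubiquitin-conjugating enzyme of mitotic exit, was at 207 and 110.0 CPM at 0 h, 60.7 and 76.5 at 6 h, and 73 and 71.1 at 9 h. Cenpf, a kinetochore protein, was at 649.8 and 362 CPM at 0 h, 233 and 259 at 6 h, and 196 and 251 at 9 h. The late columns of all 3 lay below both baselines, and the 0 h value of series 5 was the highest of the 6. Their log2 changes were -1.19 ± 0.19, -1.12 ± 0.19 and -1.05 ± 0.23, and Cenpf was at -0.71 (adjusted p 0.14) without the 0 h column of series 5.

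Many promoters of mitotic genes carry the cell cycle homology region (CHR), searched as TTTGAA on both strands. It was in 19 of 25 mitosis genes with a window and in 20.2% of 27025 genes. Of those 19 genes 17 fell, beside 22 of all 25 with a window. The 250 bases before the starts of Ube2c (chr2:164769679-164769928, plus strand) and Cdc20 (chr4:118437344-118437593, minus strand) are shown with the match in capitals, which begins 29 and 18 bases before the start. Cdc20, an activator of the anaphase-promoting complex, changed by -0.65 ± 0.19, and by -0.43 (adjusted p 0.268) without the 0 h column of series 5. Its call was also lost without the 6 h or the 9 h column of series 5 (adjusted p 0.0655 and 0.0664).
Ube2c: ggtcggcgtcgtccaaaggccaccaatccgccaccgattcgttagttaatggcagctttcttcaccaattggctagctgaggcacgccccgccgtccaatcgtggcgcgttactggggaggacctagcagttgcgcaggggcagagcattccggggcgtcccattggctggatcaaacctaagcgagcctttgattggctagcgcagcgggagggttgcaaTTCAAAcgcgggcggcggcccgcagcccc
Cdc20: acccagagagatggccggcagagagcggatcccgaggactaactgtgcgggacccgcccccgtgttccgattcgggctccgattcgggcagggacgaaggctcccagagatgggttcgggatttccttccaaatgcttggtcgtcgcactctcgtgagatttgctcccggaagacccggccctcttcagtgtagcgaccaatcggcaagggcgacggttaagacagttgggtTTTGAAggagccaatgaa

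Genes of the G1/S transition and DNA replication had 3 of 28 members that rose and none that fell (median 0.06, with 0.40 in series 5 and -0.14 in series 11). The 3 were Chaf1b, a chromatin assembly factor (0.68 ± 0.13), Mcm6, a helicase subunit (0.64 ± 0.14), and Gins2 (0.48 ± 0.0982), and none was called without the 0 h column of series 5 (adjusted p 0.0825, 0.0915 and 0.0813), while 7 members rose without the 0 h and 5 without the 9 h column of series 11, and 2 were called as fallen without the 9 h column of series 5. Replication-dependent histones, whose RNA is made in S phase, had 5 of 42 members that rose and none that fell (median 0.36). In both lists the share that rose was below the 17.5% of all tested genes. Hist1h1d, a linker histone, was at 231 and 424 CPM at 0 h, 591 and 669 at 6 h, and 982 and 565 at 9 h. The 9 h value was the highest of the 3 times in series 5 and lay below 6 h in series 11. Its change was 1.16 ± 0.29, adjusted p 0.0118, and 0.85 (adjusted p 0.178) without the 0 h column of series 5. The others were Hist4h4 (1.1 ± 0.35), Hist1h3e (0.97 ± 0.27), Hist1h1c (0.83 ± 0.23) and Hist1h1e (0.65 ± 0.22). No histone was called without the 0 h column of series 5 and 1 without that of series 11, while 35 rose without the 9 h column of series 11 and 3 were called as fallen without the 9 h column of series 5. Many histone genes are near-identical, so the share of each is uncertain.

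Targets of p53, the stress-responsive tumour suppressor, had 11 of 16 members that fell and 2 that rose (median -0.52). Mdm2, the ubiquitin ligase of p53, was at 231 and 139.6 CPM at 0 h, 124 and 95.1 at 6 h, and 117 and 90.8 at 9 h, and its change was -0.77 ± 0.10, adjusted p 0.000467. Eda2r, a receptor of the tumour necrosis factor family, was at 199 and 89.3 CPM at 0 h, 100.2 and 52.7 at 6 h, and 92.4 and 52.7 at 9 h, and its change was -0.91 ± 0.10, adjusted p 0.000211. Cdkn1a, the cell cycle inhibitor p21, was at 143 and 103 CPM at 0 h, 52.2 and 85.2 at 6 h, and 58 and 88.9 at 9 h. Mdm2 and Eda2r fell well below baseline in both series, and Cdkn1a mainly in series 5. The change of Cdkn1a was -0.86 ± 0.21, and -0.29 (adjusted p 0.279) without the 0 h column of series 5. Fas, a death receptor at under 5 CPM, changed by -1.02 ± 0.19, and by -0.74 (adjusted p 0.0832) without it. The members that rose were Sesn1 (0.64 ± 0.0907) and Bbc3 (0.42 ± 0.13), and Bbc3 kept its call only with the 9 h column of series 11 left out (adjusted p between 0.0133 and 0.169 over the 6 columns). The members that fell were 5 without the 0 h column of series 5.

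Antioxidant genes controlled by the factor NRF2 rose: 12 of 18 rose and 1, Hmox1, fell (median 0.49). Nqo1, a quinone reductase, was at 15.7 and 53.3 CPM at 0 h, 36.4 and 98.8 at 6 h, and 54.1 and 145 at 9 h, and rose by 1.31 ± 0.11, adjusted p 7.54e-05. Txnrd3, a thioredoxin reductase, was at 10.3 and 17.3 CPM at 0 h, 34 and 37.1 at 6 h, and 37.1 and 38.2 at 9 h, and rose by 1.43 ± 0.15, adjusted p 0.000178. Gsta4, a glutathione transferase, was at 45.9 and 49.8 CPM at 0 h, 99.7 and 81.7 at 6 h, and 122 and 89.8 at 9 h, and rose by 1.02 ± 0.12, adjusted p 0.000301. In all 3 genes 9 h was the highest of the 3 times in each series, and Nqo1 was higher in series 11 than in series 5 throughout. Hmox1, heme oxygenase 1, changed by -0.43 ± 0.10 and by -0.29 (adjusted p 0.145) without the 0 h column of series 5, which also took the members that rose from 12 to 7. Of 8 interferon response genes 4 fell and none rose (median -0.37). Irf9, a transcription factor of the interferon response, changed by -0.99 ± 0.13, adjusted p 0.000496. Irf1 changed by -0.43 ± 0.0867, and by -0.31 (adjusted p 0.0637) without the 0 h column of series 11. Cxcl10, at about 1 CPM, changed by -0.95 ± 0.33 and lost its call without the 0 h, 6 h or 9 h column of series 5 or the 6 h column of series 11 (adjusted p 0.481, 0.0543, 0.163 and 0.11).

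Circadian clock genes moved in both directions, 4 of 16 up and 6 down (median -0.07), against 17.5% and 18.8% of all tested genes. Nr1d1, which encodes the repressor REV-ERB alpha, was at 107 and 87.8 CPM at 0 h, 25.9 and 25.2 at 6 h, and 22 and 22.2 at 9 h. Dbp, a clock output factor, was at 50.04 and 84.3 CPM at 0 h, 18.6 and 26 at 6 h, and 10.2 and 13.6 at 9 h. The late columns of both genes lay far below both baselines, with 9 h below 6 h in each series, with changes of -2.03 ± 0.11, adjusted p 1.04e-05 and -2.01 ± 0.0808, adjusted p 1.19e-06. Nr1d1 overlaps Thra and Dbp overlaps Sphk2 on the other strand. Nr1d2 (-0.52 ± 0.0738), Tef (-0.44 ± 0.0844), Bhlhe41 (-0.65 ± 0.12) and the period gene Per2 (-0.49 ± 0.11) also fell.

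The cryptochrome repressors rose, Cry1 by 0.98 ± 0.0951 and Cry2 by 0.90 ± 0.0927. Cry1 was at 9.55 and 13.9 CPM at 0 h, 22.7 and 29.1 at 6 h, and 18.7 and 21.8 at 9 h, highest at 6 h in both series. Arntl, the clock activator BMAL1, was at 12 and 13 CPM at 0 h, 9.76 and 15.3 at 6 h, and 18.3 and 36.1 at 9 h, with its highest value at 9 h in both series. Its change was 0.51 ± 0.17 and its call was lost without the 0 h column of series 5 or 11 or the 6 or 9 h column of series 11 (adjusted p 0.0583, 0.306, 0.0892 and 0.0851). Rora, which opposes REV-ERB alpha, rose by 0.79 ± 0.18. Rora and Per2, without the 0 h column of series 11, were at 0.62 and -0.28 (adjusted p 0.0657 and 0.155), which left 2 clock genes that rose.

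Among targets of SRF, the factor that drives genes of the actin cytoskeleton, 6 of 17 fell and 1, Zyx, rose (median -0.21), and Zyx (0.24 ± 0.0798) lost its call with any of the 6 columns left out. Acta2, smooth muscle actin, was at 2479 and 587 CPM at 0 h, 1176 and 402 at 6 h, and 904 and 279 at 9 h, with a change of -1.03 ± 0.13, adjusted p 0.00045. Tagln, an actin-binding protein, was at 735 and 87.3 CPM at 0 h, 403 and 55.5 at 6 h, and 315 and 40.5 at 9 h, with a change of -0.96 ± 0.0922, adjusted p 0.000117. Both were several times higher in series 5 than in series 11 and had their lowest value at 9 h in each. Myl9, a myosin light chain, changed by -1.16 ± 0.19. Markers of skeletal muscle were also lower late, with a summed level of 7.05, 3.85 and 3.46 CPM at 0, 6 and 9 h of series 5 and 7.40, 5.46 and 4.86 of series 11. Of the 8 markers 2 were tested, and Acta1, skeletal muscle actin, fell with a log2 change of -1.87 ± 0.22, adjusted p 0.000299; Myod1, Ckm and Myh2 are listed at 0, and the part of such markers in the SRF result was not tested. Of 13 targets of the mechanosensitive factor YAP, 6 fell and none rose (median -0.25). Cyr61, a matricellular protein, was at 193 and 58.5 CPM at 0 h, 119.9 and 39.3 at 6 h, and 92.7 and 27.9 at 9 h, with a change of -0.84 ± 0.0864, adjusted p 0.000153, and Ptpn14 changed by -0.70 ± 0.0793. Nuak2 changed by -0.57 ± 0.12, and by -0.43 (adjusted p 0.0915) without the 0 h column of series 5. Leaving out either 0 h column left 3 YAP targets called.

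In the TGF-beta and BMP list 4 of 14 genes rose and 3 fell, against 17.5% and 18.8% of all tested genes. Tgfbi (1.08 ± 0.15), Bambi (0.68 ± 0.13), Smurf1 (0.51 ± 0.0848) and Id2 (0.37 ± 0.10) rose, and Smurf2 (-0.72 ± 0.0719) and Id3 (-0.28 ± 0.0890) were among those that fell. The calls of Id2 and Id3 were lost without the 0 h column of series 5 (adjusted p 0.226 and 0.412), as they also were without 2 and 4 of the other columns. Among collagens and matrix genes 2 of 26 rose and 5, Timp1, Postn, Col5a1, Lox and Col12a1, fell (median -0.14), and the share that fell is near the 18.8% of all tested genes. Thbs1, the matrix protein thrombospondin 1, was at 92.2 and 51.2 CPM at 0 h, 279.7 and 107 at 6 h, and 250.2 and 93.2 at 9 h, and rose by 1.25 ± 0.14, adjusted p 0.000193. Timp3, a protease inhibitor, rose by 0.67 ± 0.11, while Timp1 changed by -0.49 ± 0.11, and by -0.43 (adjusted p 0.0978) without the 0 h column of series 5, when no member was called as fallen. The 5 were 2 or 3 with any other column left out. Immediate early genes had 6 of 23 that rose and 1 that fell, Fosl1 (median 0.10), led by the nuclear receptor Nr4a1 (1.16 ± 0.12) and the factors Klf2 (1.09 ± 0.13) and Klf4 (0.72 ± 0.0784). Fosl1 changed by -0.38 ± 0.11 and was at adjusted p 0.179 and 0.0925 without the 0 h column of series 5 or 11, and not called either without the 6 or 9 h column of series 5.

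Cholesterol synthesis and uptake genes had 7 of 23 members that rose and none that fell (median 0.21, with 0.38 in series 5 and -0.06 in series 11). Hmgcs1, which makes the precursor of mevalonate, was at 129.6 and 158 CPM at 0 h, 217 and 170.5 at 6 h, and 309 and 261 at 9 h. It was above its baseline at both times in series 5 and mainly at 9 h in series 11, a change of 0.71 ± 0.14, adjusted p 0.00377. Pmvk rose by 0.75 ± 0.13 and Lss, which closes the sterol rings, by 0.71 ± 0.14. Without the 0 h column of series 5, 2 members were called, and Hmgcs1 and Lss were at 0.51 and 0.54 (adjusted p 0.0819 and 0.0864). Fatty acid genes had 2 of 16 that rose, a share below the 17.5% of all tested genes. They were Acsl1 (0.54 ± 0.0730) and the desaturase Scd2 (0.55 ± 0.13), the latter at adjusted p 0.128 without that column. The count was 1 without it, 5 without the 0 h column of series 11, and 3 and 4 without the 6 and 9 h columns of series 11.

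Genes of glycolysis and hypoxia had 6 of 24 that rose and 3 that fell (median 0.19), against 17.5% and 18.8% of all tested genes. The share that fell was below that of all genes. Bnip3, a mitophagy receptor, was at 8.64 and 18.8 CPM at 0 h, 27.5 and 26.2 at 6 h, and 34.5 and 36 at 9 h and rose by 1.24 ± 0.22, adjusted p 0.00211. Pdk1, an inhibitor of pyruvate oxidation, rose by 0.80 ± 0.13, and Aldoc changed by -1.003 ± 0.26 at about 1 CPM, with adjusted p 0.292 without the 0 h and 0.0512 without the 6 h column of series 5. The others that fell were the collagen hydroxylases P4ha1 (-0.71 ± 0.10) and P4ha2 (-0.54 ± 0.11), the latter at adjusted p 0.119 without the 0 h column of series 5. The members that rose were 2 without that column and 3 without the 6 h column of series 5. Proteasome subunits had 10 of 31 that rose and none that fell (median 0.20), led by Psmd8 (0.46 ± 0.10), and none was called without the 0 h column of series 5. The count was 3 without the 6 h column of series 11 and 4 and 5 without the 6 and 9 h columns of series 5.

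Of 76 ribosomal protein genes 5 rose (led by Rps16 with 0.41 ± 0.0887 and Rps20 with 0.36 ± 0.11), of 24 ribosome biogenesis genes Ubtf (0.41 ± 0.0776) and Ddx21 (0.44 ± 0.10) rose and Rrp9 (-0.40 ± 0.0921) fell, and of 48 oxidative phosphorylation genes Atp5g3 (0.31 ± 0.0889) rose, each a share below the 17.5% of all genes that rose. The ribosomal protein count was 17 without the 0 h column of series 11, 2 without the 9 h column of series 11 and 1 without any other, and Rps20 was at adjusted p 0.309 without the 0 h column of series 5. Ubtf and Ddx21 lost their calls without the 0 h column of series 5 (adjusted p 0.0583 and 0.138) and Rrp9 without that of series 11 (adjusted p 0.0735), when 7 biogenesis genes rose, and Atp5g3 kept its call only without the 9 h column of series 5. Of 21 ATF4 targets 3 rose, a share below the 17.5% of all tested genes, and 6 fell, against 18.8% (median -0.05). Those that rose were Ppp1r15a, which restarts translation after stress (0.67 ± 0.0881), and the amino acid transporters Slc7a11 (0.54 ± 0.15) and Slc7a5 (0.50 ± 0.11). The largest falls were in the enzyme Mthfd2 (-0.66 ± 0.13) and the factor Atf5 (-0.60 ± 0.10). Without the 0 h column of series 5, 1 rose and 2 fell, and Slc7a11 and Slc7a5 were at adjusted p 0.18 and 0.111.

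Intron reads were tested for 11482 genes, of which 1810 (15.8%) rose and 1901 (16.6%) fell. The 3711 calls were 1444 without the 0 h column of series 5. In the chaperone list 23 of 29 genes fell and none rose (median -0.49), in the ER list 14 of 22 fell (median -0.35), and in the mitosis list 28 of 30 fell (median -0.59). The mitosis count was 3, 17 and 16 without the 0, 6 and 9 h column of series 5, and that of the ER list 6 without the 0 h column. Dnajb1, the HSP40 induced by heat, changed by -1.54 ± 0.15 in introns and -1.13 ± 0.0879 in exons. Cholesterol genes had 15 of 23 introns that rose and none that fell (median 0.42), against an exon median of 0.21, and 4 rose without the 0 h column of series 5. Collagens and matrix genes had 9 of 25 introns that rose and 1 that fell, while their exon-to-intron ratio fell in 12 of 25, against 20.5% of all genes tested for the ratio (2 and 3 without that column, and 5 for the ratio without the 9 h column of series 5). The number of ratios that fall depends on the scale, as described with the ratios of all genes.

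**Figure D3:**
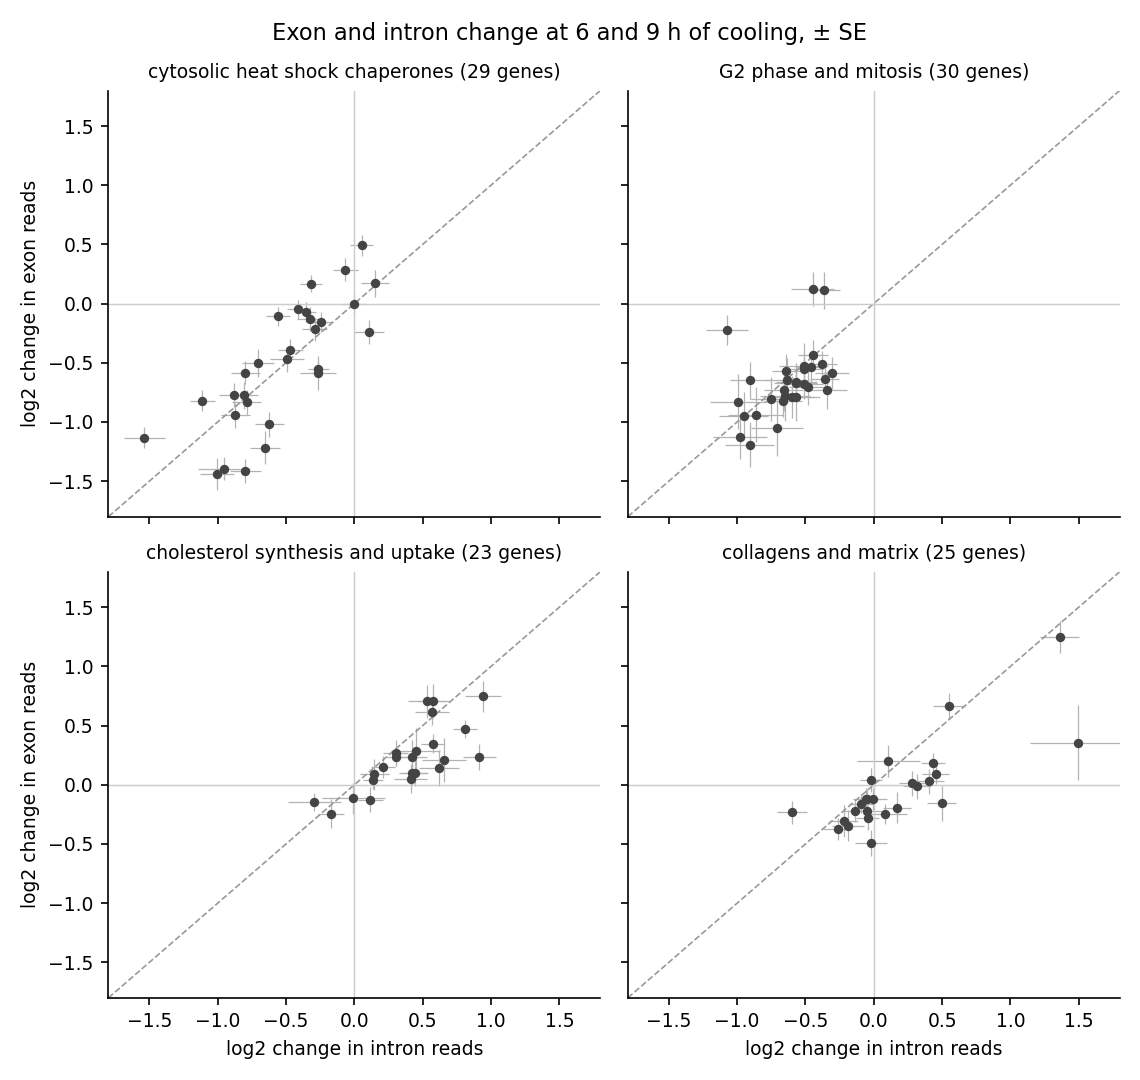
Log2 change at 6 and 9 h of cooling in exon reads (y axis) against intron reads (x axis), each point a gene with its SE on both axes, for 4 gene lists; the dashed line marks equal change. Most chaperone and mitosis genes lie in the lower left, and most cholesterol genes lie on the right and below the line.

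Several of the genes with the largest intron rises had few or no exon reads. St8sia5, a sialyltransferase, had 2 intron reads at 0 h and 156 over the late columns, a ratio of 41.6 with a 95% exact counting interval from 11.3 to 347, and its fitted change depends on the prior count. As with Mrgprd in exons, it passed the filter only through columns after the shift. The same held for Nfasc in both series and for Adh1 in series 5, both given below. Grip1, a scaffold protein of glutamate receptors, was at 1.18 and 1.54 CPM of intron reads at 0 h, 12.4 and 15.1 at 6 h, and 15 and 14.4 at 9 h. All late columns were about equal and far above both baselines, a change of 3.39 ± 0.25, adjusted p 7.01e-06, while its exon level was at most 0.0798 CPM. Grip1 overlaps Helb and several antisense genes of its own locus. Nfasc, the adhesion protein neurofascin, was at 0.0946 and 0.362 CPM of intron reads at 0 h, 3.68 and 5.24 at 6 h, and 3.26 and 3.56 at 9 h, and Adh1, an alcohol dehydrogenase, at 0.0946 and 1.04 CPM of intron reads at 0 h, 3.47 and 7.65 at 6 h, and 6.32 and 9.80 at 9 h. Their exon levels stayed at or below 0.354 CPM, and neither was tested in exons. The changes were 4.08 ± 0.35 in Nfasc and 3.55 ± 0.36 in Adh1, or 5.01 and 5.66 without the 0 h column of series 11, and 2.96 in Adh1 without that of series 5. Ccdc85a rose by 2.92 ± 0.41 and Pcdh10 by 3.64 ± 0.32, or 4.19 and 4.41 without the 0 h column of series 11 and 2.01 and 2.42 without that of series 5.

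Intron reads fell most in Syt11 (-2.51 ± 0.21, adjusted p 1.5e-05), beside a like exon change of -2.80 ± 0.25. Syce2, a protein of the meiotic synaptonemal complex, was at 16.9 and 9.06 CPM of intron reads at 0 h, 4.30 and 2.59 at 6 h, and 3.114 and 2.67 at 9 h, and Masp2, a protease of the complement lectin pathway, at 7.61 and 5.62 CPM of intron reads at 0 h, 1.67 and 1.90 at 6 h, and 1.63 and 1.44 at 9 h. Their late columns were all below both baselines, with changes of -2.04 ± 0.19 and -1.99 ± 0.23. Syce2 overlaps Gcdh, Masp2 overlaps Tardbp and Svop overlaps Usp30 on the other strand. Svop changed by -2.01 ± 0.31, by -0.99 without the 0 h column of series 5 and by -2.68 without that of series 11. Zfp708 changed by -2.08 ± 0.21 and Noxred1 by -2.05 ± 0.25.

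The exon-to-intron ratio was tested for 10345 genes as the exon change minus the intron change. With each read type scaled apart, 1910 genes (18.5%) rose and 2125 (20.5%) fell, or 39.0% in all, relative to the typical gene, with a median of -0.02. On the exon scale for both read types, 2134 rose and 768 fell, with a median of 0.10, so the balance of rises and falls depends on the scale. The 4035 calls were 1832 without the 0 h column of series 5 and 2678 without that of series 11. Cirbp had 0.852 and 0.917 exon reads per intron read at 0 h, 5.95 and 7.14 at 6 h, and 7.19 and 7.11 at 9 h. Its ratio rose by 2.83 ± 0.12, adjusted p 2.33e-09, while its introns rose by 0.84 ± 0.14, so most of the exon rise was a change in the ratio. Rbm3 had 4.21 and 6.24 exon reads per intron read at 0 h, 18.4 and 20.05 at 6 h, and 22.6 and 20.6 at 9 h. Its ratio rose by 1.86 ± 0.13, adjusted p 2.62e-07 while its introns fell with a change of -0.58 ± 0.15, so exon and intron reads moved in opposite directions.

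Foxred2, an ER flavoprotein of protein degradation, had 0.732 and 1.02 exon reads per intron read at 0 h, 2.96 and 3.80 at 6 h, and 4.96 and 5.29 at 9 h. The ratio rose by 2.17 ± 0.14, adjusted p 1.16e-07, with exons at 0.72 and introns at -1.47. Rnf26, a ubiquitin ligase of the ER membrane, had 1.64 and 1.76 exon reads per intron read at 0 h, 7.17 and 6.98 at 6 h, and 5.78 and 6.1 at 9 h. Its ratio rose by 1.81 ± 0.10, adjusted p 4.7e-08 with introns at -1.86 ± 0.15 and an exon change of -0.03 that was not called. Cela1 had a ratio change of 1.87 ± 0.12 against 0.46 ± 0.15 in introns. Tbc1d10c had 1.62 ± 0.33, and 0.99 (adjusted p 0.199) without the 0 h column of series 5.

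The exon-to-intron ratio fell in Rmi2, a subunit of the complex that dissolves DNA crossovers, which had 0.453 and 0.390 exon reads per intron read at 0 h, 0.175 and 0.167 at 6 h, and 0.154 and 0.132 at 9 h. Taco1, an activator of mitochondrial translation, had 0.218 and 0.194 exon reads per intron read at 0 h, 0.0863 and 0.0763 at 6 h, and 0.0789 and 0.0745 at 9 h. In both genes the late columns were nearly equal across series and below both baselines, with changes of -1.54 ± 0.0914, adjusted p 6.32e-08 and -1.51 ± 0.13, adjusted p 1.59e-06. Exons of both fell (-0.83 and -0.90) while introns rose (0.70 and 0.61). Rassf6 changed by -1.72 ± 0.14, Fbxl22 by -1.70 ± 0.20 and Cml1 by -1.56 ± 0.21, each with exons that fell and introns not called. On the other strand Rnf26 overlaps C1qtnf5 and Mfrp, Taco1 overlaps Taco1os, Fbxl22 overlaps Herc1 and Cml1 overlaps Tprkb. Lars2 changed by -3.07 ± 0.50, by -1.48 without the 0 h column of series 11 and by -4.22 without that of series 5.

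**Figure D4:**
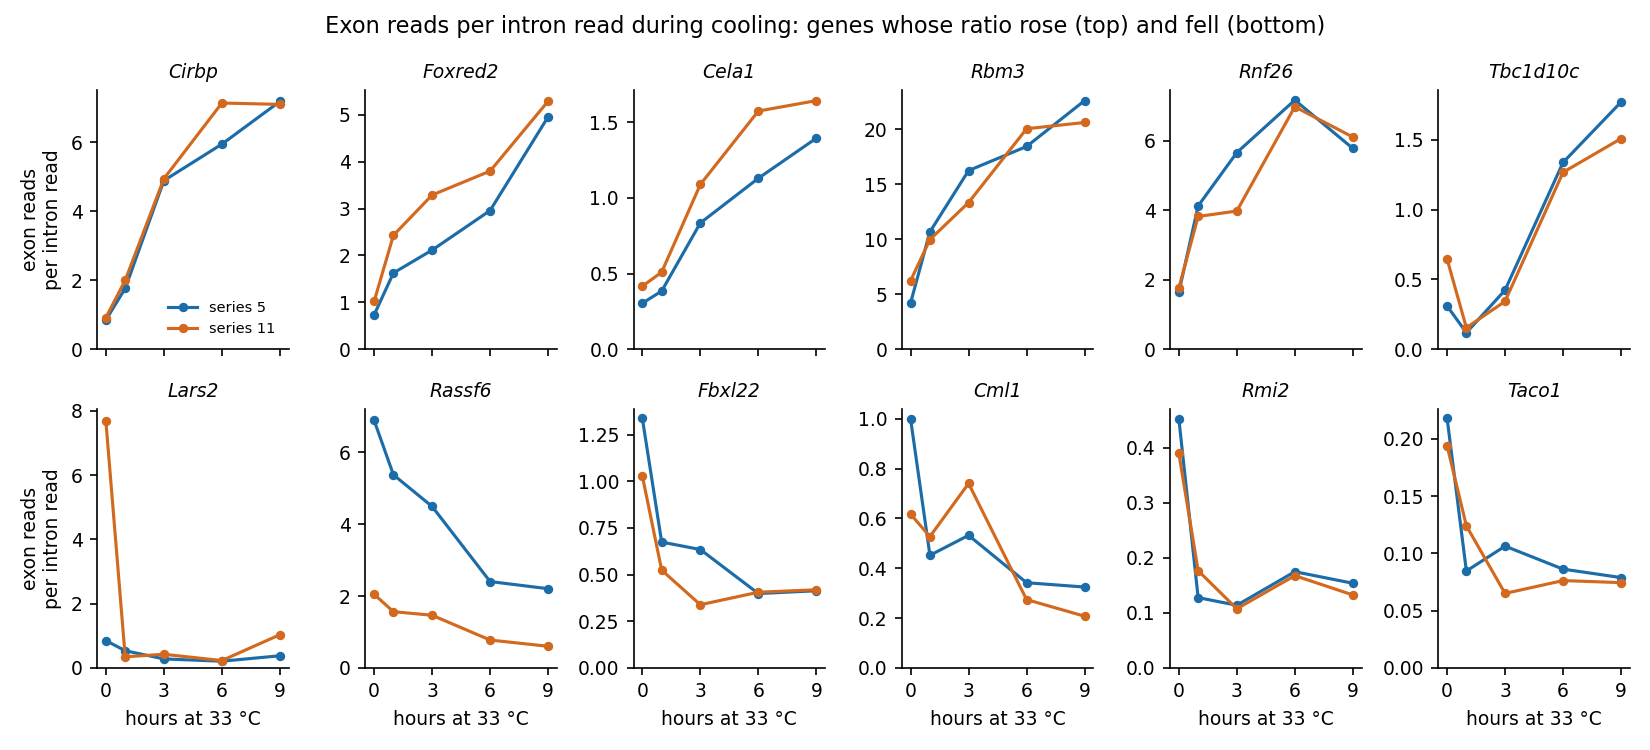
Exon reads per intron read (y axis, linear, from 0) against hours at 33 °C (x axis) for the 6 genes per direction with the largest called ratio change, blue series 5 and orange series 11. The late ratios of Cirbp, Foxred2, Cela1 and Rbm3 are the highest of the course in both series, those of Rmi2 and Taco1 are low from 1 h on, and Lars2 is high only at 0 h of series 11.

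To show which changes grew or turned after the first hours, 6 and 9 h were compared with 1 and 3 h of cooling. Of 11592 genes, 1399 (12.1%) were higher late and 1465 (12.6%) lower, and the 2864 calls were 1312 and 1774 without the 6 and 9 h columns of series 5 and 1664 without the 6 h column of series 11. Epm2a was higher by 2.06 ± 0.21, adjusted p 0.000264, Tbc1d10c by 1.98 ± 0.14, Fyb by 1.56 ± 0.26, Mrgprd by 1.55 ± 0.18 and the kinase Map3k15 by 1.55 ± 0.19. Lower late were Syt11 (-2.28 ± 0.23, adjusted p 0.000288), Pla2g4c (-1.799 ± 0.22), Dbp (-1.67 ± 0.0707), Nr1d1 (-1.59 ± 0.0975) and Zfp296 (-1.55 ± 0.28). Nr1d1 was at 117 and 77.3 CPM at 1 h and 55 and 51.8 at 3 h, so it was between its 0 h and its late level at 3 h in both series.

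By list, 16 of 32 chaperones, 20 of 30 mitosis genes, 8 of 16 clock genes and 8 of 13 YAP targets were lower late than early, and 11 of 18 NRF2 genes and 15 of 42 histones were higher. Without the 6 and the 9 h column of series 5 the mitosis count was 7 and 8, the NRF2 count 6 and 7 and the histone count 3 and 4, and the YAP count was 5 without the former. The histone count was also 1 without the 6 h and 40 without the 9 h column of series 11, and 6 without either 0 h column. Cirbp was higher late by 1.30 ± 0.0816, adjusted p 4.48e-05, and Rbm3 differed by 0.58 ± 0.20, adjusted p 0.0599, which was not called.

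Between 9 h and 6 h no gene was called by edgeR, with 869 of 11592 genes at an unadjusted p under 0.05, and DESeq2 called 7 higher and 13 lower at 9 h. The 2 late times are therefore described together, and single rises from 6 to 9 h, such as those of Cirbp, are values and not calls.

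To show whether the late changes depended on the direction of the shift, the change after cooling was compared with that after warming, which shares no sample with it. Of 11308 genes, 2956 (26.1%) had a higher and 2793 (24.7%) a lower change after cooling. Warming alone raised 1997 (17.7%) and lowered 2392 (21.2%). Of the genes that rose after cooling 1215 fell after warming, which is 61.5% of the first list and 50.8% of the second, and 24 rose in both. Of those that fell after cooling 1227 rose after warming (56.9% and 61.4%), and 67 fell in both. The difference was 7.05 ± 0.28, adjusted p 2.51e-08 for Cirbp, which fell after warming (-3.39 ± 0.17). Pcdh10 (7.19 ± 0.51), Cela1 (4.75 ± 0.27), Epm2a (4.32 ± 0.35) and Inha, a subunit of the hormone inhibin (4.18 ± 0.27), had the other large differences in that direction. Zfp296 (-5.84 ± 0.45), Syt11 (-5.57 ± 0.38), Pla2g4c (-5.04 ± 0.47), Rnf151 (-4.83 ± 0.43) and Creld1 (-4.47 ± 0.33) led the other, and all 5 rose after warming. Without the 0 h column of series 5 or 11 the difference of Pcdh10 was 5.93 or 7.96.

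In mitosis genes, 28 of 30 had a lower change after cooling than after warming, as had 25 of 32 chaperones, and 31 of 42 histones had a higher one. The histone count was 13 and 16 without the 0 h column of series 5 and 11. Of the mitosis genes 23 of 30, of the chaperones 17 of 32 and of the ER genes 12 of 22 fell after cooling and rose after warming. Over all 11308 genes 1227 did so. The reverse, a rise after cooling and a fall after warming, was seen in 9 of 18 NRF2 genes and 5 of 42 histones. Over all 11308 genes 1215 did so, and the histone share was near that of all genes. In the clock list 3 genes fell after both shifts (Nr1d1, Nr1d2 and Dbp), in the SRF list 4 (Acta2, Tagln, Myl9 and Cnn2) and in the YAP list 4, among them Cyr61. Nr1d1 changed by -1.90 ± 0.15 after warming, and the difference from cooling was -0.13 ± 0.22, adjusted p 0.656. Acta2 changed by -1.20 ± 0.12 after warming, with a difference of 0.17 ± 0.17, adjusted p 0.437, and Cyr61 by -1.32 ± 0.21, with a difference of 0.47 ± 0.31, adjusted p 0.233. For these 3 genes no difference between the shifts was called. Cholesterol genes rose after warming in 13 of 23, 2 of which rose after cooling too, and Hmgcs1 differed by 0.34 ± 0.22, adjusted p 0.226 between the shifts, which was not called.

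**Figure D5:**
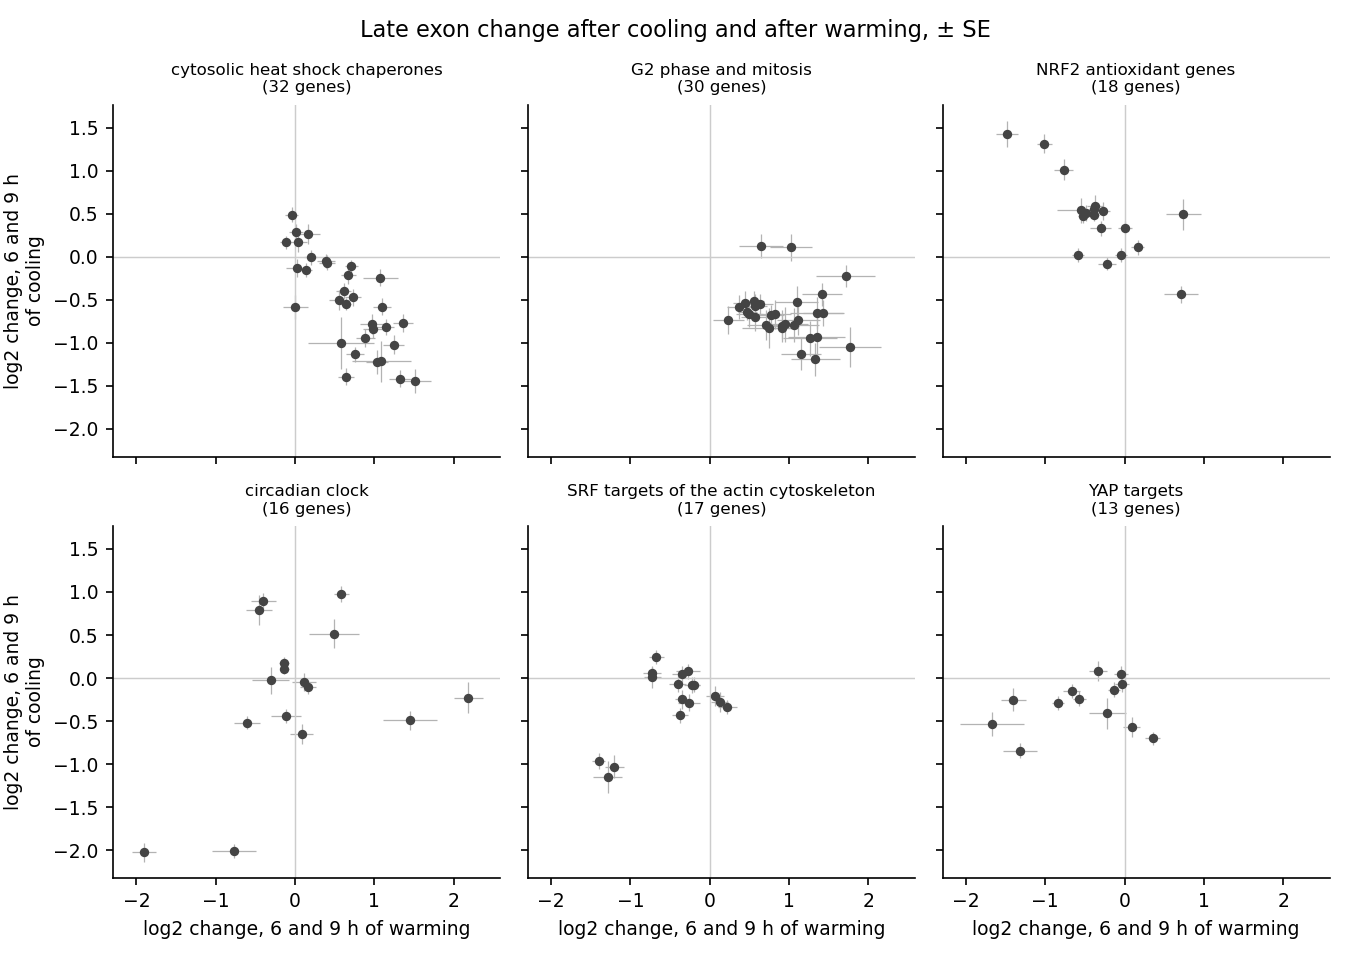
Log2 change in exon reads at 6 and 9 h of cooling (y axis) against that at 6 and 9 h of warming (x axis), each point a gene with its SE on both axes, for 6 gene lists. Most mitosis genes and chaperones lie to the lower right and most NRF2 genes to the upper left, while Nr1d1, Dbp, Acta2, Tagln and Myl9 lie to the lower left.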

How the data were processed

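Per the labels' protocols, total RNA of 10 samples was treated with DNase, freed of ribosomal RNA and sequenced paired-end and strand-specifically, and per the submitters' processing notes STAR and bedtools were used with mm10. For tool versions, annotation, counting rule and use of strand: not given in the sources used here. Both deposited tables, exon and intron, hold estimated counts (22.9% of exon values above 0 are whole within 1e-06), which were rounded. Group labels came from titles, save for 1 mistyped title, where the description was used. Of 38087 genes, 36308 matched GENCODE M21 by ID.

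Genes with a mean of 20 counts per column in each of series 5 and 11 were tested with edgeR 4.0.16 in R 4.3.3 (quasi-likelihood test, TMM, Benjamini-Hochberg adjustment), over 10 cooling columns with series and time as terms and 4 residual degrees of freedom. The 1 and 3 h samples also hold a column of series 10, which was left out, and with it late against early gave 3156 calls in place of 2864. The exon-to-intron ratio is the interaction of read type and time with the library as block, and cooling against warming was fitted over 20 columns. Series numbers pair columns across times, as same-numbered columns deviated together in the 10 pairs of times (correlations from 0.741 to 0.822), so the series was kept as a block. DESeq2 1.42.0 was an alternative. Single-column log2 values used a prior count of 0.5. Promoter sequences came from RefSeq (GRCm38.p6), and 568 of 631 windows of list genes shared sequence with the first bases of a GENCODE transcript of that gene.

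Genes were named by rank of change among called genes with plain symbols and one sign in all late columns (12 per direction for exons, 6 for introns and ratios, 5 for other comparisons), with Cirbp and Rbm3 and up to 3 genes per list. Other genes of lists, among them Hspa5, Hsp90aa1, Hspe1, Hspd1, Cdc20, Mdm2, Arntl and all named to complete a count, were chosen after their values were seen. The members and the lists were chosen with earlier results of these data known. Some members of these lists are not reported here by name.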

Additional observations from a re-analysis of the deposited data

Results flagged for a closer look

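The late change differed between cooling and warming in 5749 of 11308 genes by edgeR's interaction test, a difference between the courses that was tested directly. Cirbp and Cela1 moved up after cooling and down after warming, and Syt11 and Creld1 the other way.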

How the results depend on the processing

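The number of genes called depended on the treatment of the 2 series, and the cause was not tested. Without the replicate block the calls were 279 of 4208 for exons, 342 of 3711 for introns, 2254 of 4035 for the ratio, 10 of 2864 for late against early and 1093 of 5749 for cooling against warming. With the columns of a sample summed they were 2074, 2298, 235 and 459 in the first 4 of these comparisons. In series 5 alone they were 1634, 1763, 170 and 324, and in series 11 alone 9, 929, 71 and 8, both with fewer columns. Cooling against warming gave 3707 calls in series 2 and 5 and 2748 in series 11 and 13. With 1 column left out at a time the calls ranged from 1602 to 3519 for exons, from 1444 to 2871 for introns, from 1832 to 3529 for the ratio, from 1312 to 2931 for late against early and from 4439 to 5471 for cooling against warming. For 9 against 6 h, 0 genes were called in the main analysis, 20 by DESeq2, 2 without the filter on low counts and between 0 and 12 with 1 column left out. Over all alternatives, 568 values of named genes lost their call and 1 changed sign: Elovl6, which was not called, was at -0.032 in series 11 alone. In series 11 alone 158 results of called genes were no longer called and 25 were, and without the block 138 were not and 55 were. Series 11 at 9 h was the shallowest column, and genes with few reads at 0 h have wide intervals. The gene AY036118 held 3.8% of the intron reads of that column. In every other cooling intron column the top gene held at most 0.5%.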
